A study of Homo sapiens with 12 samples.

Results

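The genes described here are those of glycolysis and of the response to low oxygen. They were chosen by name, from a list of 37 gene symbols, and 35 of the 37 have a row among the 19923 protein-coding genes counted. LDHB and VEGFA are not analysed here. The 35 genes fall into 18 glycolytic and regulatory enzymes (HK1, HK2, GPI, PFKL, PFKM, PFKP, PFKFB3, PFKFB4, ALDOA, ALDOC, TPI1, GAPDH, PGK1, PGAM1, ENO1, ENO2, PKM and LDHA), 4 membrane transporters (SLC2A1, SLC2A3, SLC16A1 and SLC16A3), 2 pyruvate dehydrogenase kinases (PDK1 and PDK3), 2 alpha subunits of hypoxia-inducible factors (HIF1A and EPAS1) and 9 targets of these factors with roles outside glucose breakdown (BNIP3, CA9, ADM, NDRG1, EGLN3, ANKRD37, KDM3A, P4HA1 and P4HA2).

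Poly(A)-selected RNA was sequenced from SK-N-BE2 and from NGP. Both are established lines grown from human neuroblastoma, a childhood tumour of the sympathetic nervous system, both carry MYCN amplification, and both are labelled WT in genotype. Each line was kept for 6 days with STM2457, a small-molecule inhibitor of the m6A RNA methyltransferase METTL3, or with its solvent DMSO. SK-N-BE2 received 12 µM and NGP received 1 µM, and the 4 groups hold 3 libraries each. The labels name no treatment with low oxygen, and they do not say that replicates were separate cultures, so p-values measure the spread between these libraries. Between 47242379 and 58159937 reads were counted per library. The file headers list the lines under different folders, which may or may not be separate sequencing runs. Any difference between the lines is therefore also one of dose and of any such run, and these cannot be told apart. The 10 markers of sympathetic neuroblastoma summed to between 2394 and 4499 CPM (read counts on a common library-size scale) in the 12 libraries, with TH under 1 CPM in NGP. Of 12 markers of blood, vessel, fibroblast, epithelial, liver and Schwann cells, 11 have a row. Their sum in SK-N-BE2 lay between 77.9 and 84.3 CPM with DMSO and between 138 and 153 CPM with STM2457. The NGP sums lay between 12.3 and 15.8 CPM with DMSO and between 26.9 and 36.4 CPM with STM2457. KRT5 was at 0 in every library, and the extracellular matrix genes DCN and LUM rose in both lines. The part of these genes in the results below was not tested. In bulk RNA, fewer cells of a type and less RNA per cell cannot be told apart.

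Glycolysis turns glucose into pyruvate, which is either passed to mitochondria or reduced to lactate and exported. Hypoxia-inducible factors (HIFs) pair an oxygen-sensitive alpha subunit with ARNT and bind the core sequences ACGTG and GCGTG in regulatory DNA. Prolyl hydroxylases mark the alpha subunits for destruction when oxygen is present, so HIF activity is set largely at the protein level, which was not measured. MYC proteins bind the related E-box CACGTG, and many glycolytic genes are known targets of both families.

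The RefSeq promoter windows of 4 genes whose responses are described in full are shown. They were picked because they differ both in response and in how often the window carries the HIF core. Genes picked on both cannot show a link between response and core, and none was tested. Each window holds the 250 bases before the RefSeq start on GRCh38.p14, on the strand of the gene. Capitals mark ACGTG or GCGTG on either strand (CACGT and CACGC on the opposite one). CACGTG reads the same on both strands and so holds overlapping ACGTG matches, 1 on each strand. The windows lie at chr11:18394313-18394562 (LDHA, plus strand), chr2:74833877-74834126 (HK2, plus strand), chr10:69269750-69269999 (HK1, plus strand) and chr2:172555123-172555372 (PDK1, plus strand).
LDHA: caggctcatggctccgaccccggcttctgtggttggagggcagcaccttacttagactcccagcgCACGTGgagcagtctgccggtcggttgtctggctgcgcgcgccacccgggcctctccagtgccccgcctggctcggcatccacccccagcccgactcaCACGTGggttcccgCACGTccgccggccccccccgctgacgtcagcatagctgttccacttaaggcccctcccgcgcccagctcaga
HK2: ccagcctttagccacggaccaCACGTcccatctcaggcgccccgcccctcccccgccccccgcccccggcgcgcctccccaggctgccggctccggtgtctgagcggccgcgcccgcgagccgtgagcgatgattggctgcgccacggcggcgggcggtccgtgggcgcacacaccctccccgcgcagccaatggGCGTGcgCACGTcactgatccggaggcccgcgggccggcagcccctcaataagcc
HK1: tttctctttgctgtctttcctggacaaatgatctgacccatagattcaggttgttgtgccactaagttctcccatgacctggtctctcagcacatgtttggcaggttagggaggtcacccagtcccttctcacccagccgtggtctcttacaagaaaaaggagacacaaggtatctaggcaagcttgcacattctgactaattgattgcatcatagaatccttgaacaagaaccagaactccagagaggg
PDK1: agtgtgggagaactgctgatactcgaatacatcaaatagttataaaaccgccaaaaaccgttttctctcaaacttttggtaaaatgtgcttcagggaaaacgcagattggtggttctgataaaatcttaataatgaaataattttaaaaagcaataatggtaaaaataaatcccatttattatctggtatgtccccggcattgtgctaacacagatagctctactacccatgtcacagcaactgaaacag

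LDHA has 5 matches, all ACGTG, of which 4 come from 2 copies of CACGTG. HK2 has 3 matches, while HK1 and PDK1 have none in this window. Of the 35 genes, 32 had a window in the RefSeq table, and 21 of these (65.6%) held ACGTG or GCGTG, against 50.8% of all 15084 windows. ACGTG, with or without GCGTG, was in 13 of the 32 (40.6%), against 20.8% of all windows, and CACGTG in 5 (15.6%), against 7.8%. GCGTG was in 13 of the 32 (40.6%), close to the 39.6% of all windows. Only 1 start per gene was read, the RefSeq start nearest to the outermost 5′ end of the counted exons. It need not be the start used in these cells, and any other start was not searched. A window without a match, as for HK1 and PDK1, therefore does not show that the gene lacks the core. The windows of P4HA2, PGK1 and EGLN3 lie 68224, 193509 and 511700 bases from the 5′ ends of those genes in the deposited files, so they are not shown, although they are among the 32 (PGK1 with 3 matches, the others with none). A match is a stretch of letters in the window and was not tested as a binding site.

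STM2457 moved the glycolytic enzymes mostly upward in NGP and in both directions in SK-N-BE2. Over all classes, 22 of 35 genes changed in SK-N-BE2 and 23 of 34 tested changed in NGP, beside 54.7% and 41.7% of all genes tested. In SK-N-BE2, 8 of 18 enzymes rose and 4 fell, by edgeR's quasi-likelihood test with Benjamini-Hochberg adjustment over all genes at a threshold of 0.05. Among all 14013 genes tested in that line, 26.9% were called higher and 27.8% lower. In NGP, 15 of 18 enzymes rose and 1 fell, where 19.4% of 13610 genes were called higher and 22.2% lower. The median log2 change of the enzymes was 0.12 in SK-N-BE2 and 0.54 in NGP, beside medians of -0.02 and -0.03 over all genes tested. The 9 HIF targets outside glycolysis did not follow that pattern in counts. In SK-N-BE2, 1 rose and 3 fell, with a median of -0.25, and in NGP 1 of 8 tested rose and 2 fell, with a median of -0.11. Whether the classes differ was not tested. Leaving out 1 library gave 11 to 15 enzymes called higher in NGP and 7 to 9 in SK-N-BE2. The NGP count was 11 without DMSO replicate 2, DMSO replicate 3, STM2457 replicate 1 or STM2457 replicate 3. Without SK-N-BE2 DMSO replicate 1, 5 targets were called lower in that line. In NGP, 1 was called lower without DMSO replicate 3, STM2457 replicate 1 or STM2457 replicate 2, and none was called higher without STM2457 replicate 1.

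**Figure D1:**
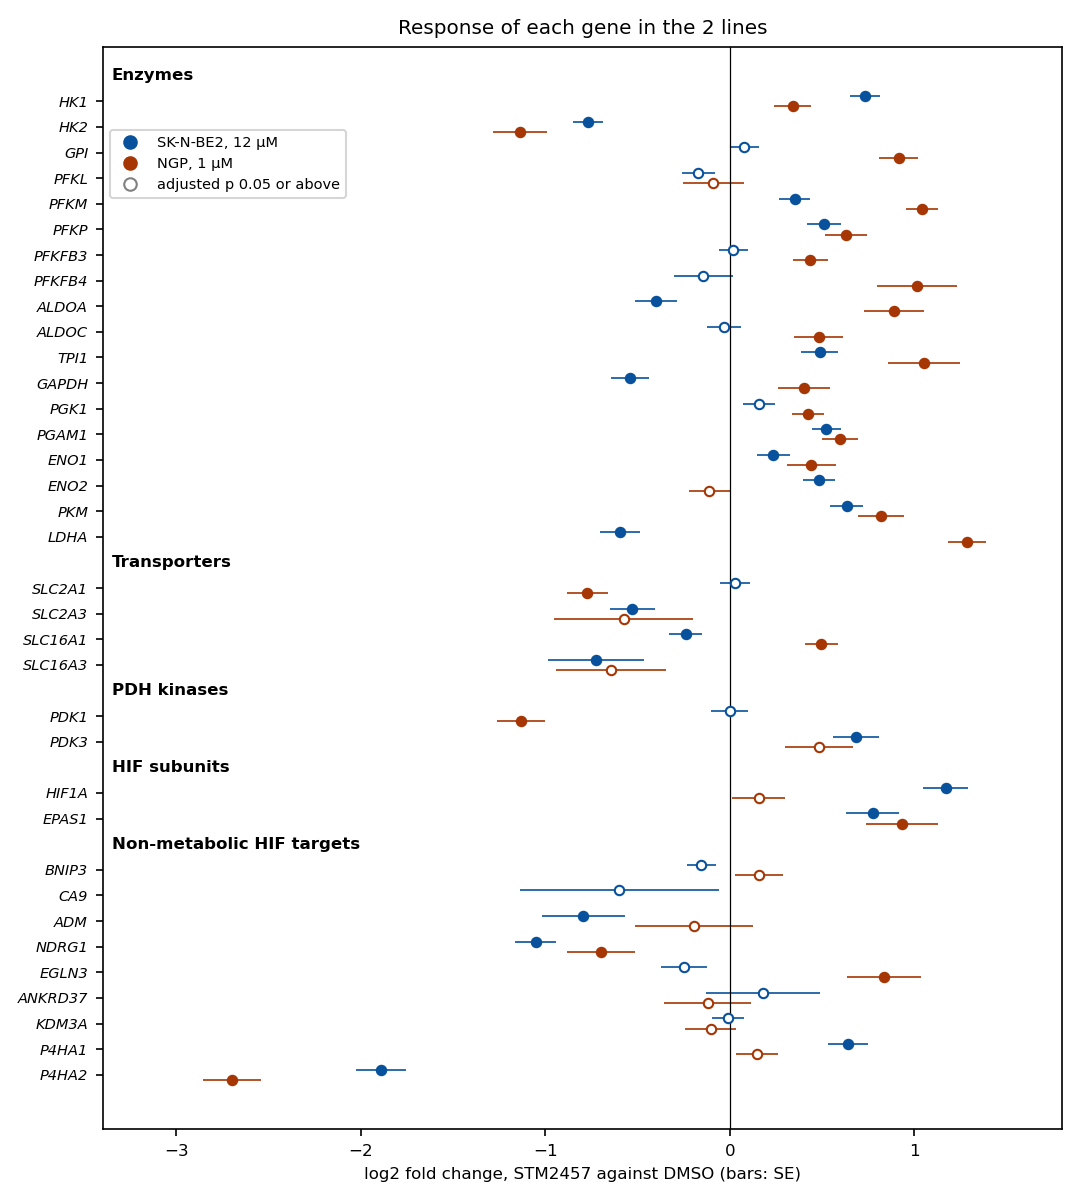
Log2 fold change of each gene with STM2457 against DMSO (horizontal axis; bars are standard errors, n = 3 libraries per group) in SK-N-BE2 (blue) and NGP (red-brown), by class; open circles have an adjusted p of 0.05 or above. Most enzymes of NGP sit right of 0, LDHA, GAPDH, ALDOA and SLC16A1 sit on opposite sides in the 2 lines, and P4HA2 is farthest left in both.

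Over both lines, 8 genes rose in each (ENO1, EPAS1, HK1, PFKM, PFKP, PGAM1, PKM and TPI1) and 3 fell in each (HK2, NDRG1 and P4HA2). Among the 12952 genes tested in both lines, 10.5% were higher in each and 10.8% lower in each. ALDOA, GAPDH, LDHA and SLC16A1 fell in SK-N-BE2 and rose in NGP, 4 of 34 genes, where 4.96% of the genes tested in both lines were called in opposite directions. BNIP3, ANKRD37, KDM3A and PFKL passed the test in neither line. The response of 17 of the 35 genes differed between the lines by the contrast of the 2 responses over all 12 libraries, where 30.9% of 14731 genes did. The response was higher in SK-N-BE2 for 7 of them and lower for 10, against 17.0% and 13.9% of all genes. Without NGP DMSO replicate 1, which stands apart from the other libraries of its group for several genes below, 22 differed.

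The hexokinases, which phosphorylate glucose and hold it in the cell, moved in opposite directions. HK1, the broadly expressed form, read 221, 200.1 and 199 CPM in the SK-N-BE2 DMSO libraries and 364, 342 and 351 with STM2457. HK2, the inducible form common in tumours, read 193, 174 and 174 CPM with DMSO and 103, 113 and 109 with STM2457 in that line. In both genes all treated libraries lay outside the range of the controls, HK1 above and HK2 below. HK1 rose 1.66-fold (log2 change 0.73, SE 0.08, adjusted p = 7.24e-06, edgeR) and HK2 fell 1.71-fold (log2 change -0.77, SE 0.08, adjusted p = 4.52e-06, edgeR).

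In NGP, HK1 read 154, 127 and 136 CPM with DMSO and 177, 173 and 177 with STM2457, and HK2 read 166, 230.0 and 223 and 85.5, 106 and 89.5. The groups again did not overlap, and DMSO replicate 1 was the highest control for HK1 and the lowest for HK2. HK2 fell 2.20-fold (log2 change -1.14, SE 0.15, adjusted p = 0.000555, edgeR). HK1 rose 1.27-fold (log2 change 0.34, SE 0.10, adjusted p = 0.0247, edgeR), but its adjusted p lay between 0.0534 and 0.0972 when any NGP library other than DMSO replicate 1 was left out and was 0.000306 without that replicate. The log2 ratio of HK1 to HK2 per length (RPKM, the CPM divided by the exon length) was 0.107, 0.109 and 0.107 with DMSO and 1.74, 1.502 and 1.60 with STM2457 in SK-N-BE2. In NGP it was -0.191, -0.947 and -0.805 with DMSO and 0.961, 0.624 and 0.891 with STM2457. HK2 RNA was thus above HK1 in every NGP control and below it in every treated library of either line. With 3 libraries against 3, the exact two-sided permutation test cannot go below p = 0.1, and it gave 0.1 in each line (0.123 after adjustment over 16 such ratios and shares).

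GPI and PFKM rose in NGP by more than in SK-N-BE2 (adjusted p of the difference 0.000256 and 0.00039, edgeR). GPI, which converts glucose 6-phosphate to fructose 6-phosphate, had a log2 change of 0.91 in NGP and 0.08 in SK-N-BE2 (adjusted p = 0.000339 and 0.428, edgeR). The phosphofructokinase subunits PFKM and PFKP rose in both lines, by log2 changes between 0.35 and 1.04, and PFKL in neither. PFKM made up 36.7% ± 3.12 (SD, n = 3) of the 3 subunits per length in NGP with DMSO and 45.2% ± 2.21 with STM2457. In SK-N-BE2 the PFKM share was 53.0% ± 2.64 and 52.6% ± 0.584, with overlapping libraries, while the PFKL share went from 11.6% ± 1.16 to 8.03% ± 0.388. PFKL also went from 11.4% ± 1.20 to 6.44% ± 0.865 in NGP, with no overlap between groups in either line. The exact two-sided permutation p was 0.9 for the PFKM share in SK-N-BE2 and 0.1, the smallest possible, for the PFKM share in NGP and the PFKL share in each line. The PFKP share went from 35.4% ± 2.11 to 39.4% ± 0.547 in SK-N-BE2 (exact permutation p = 0.1) and from 52.0% ± 2.06 to 48.4% ± 1.36 in NGP, where libraries overlapped (exact permutation p = 0.2). GPI, PFKM and, further on, GAPDH, ENO2 and P4HA1 were singled out after their values were seen.

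PFKFB3 and PFKFB4 make and degrade fructose 2,6-bisphosphate, the main activator of phosphofructokinase. PFKFB4 read 2.86, 1.85 and 3.03 CPM in NGP with DMSO and 5.29, 5.28 and 5.06 with STM2457. The treated libraries were all above the controls, and the gene rose 2.02-fold (log2 change 1.01, SE 0.21, adjusted p = 0.00596, edgeR). In SK-N-BE2 it read 5.11, 4.16 and 4.02 and 4.40, 3.86 and 4.08, with overlapping groups (adjusted p = 0.475, edgeR). The responses of the lines differed by -1.15 on the log2 scale, SK-N-BE2 minus NGP (SE 0.27, adjusted p = 0.0056, edgeR). PFKFB3 likewise rose in NGP (log2 change 0.44) and not in SK-N-BE2 (0.02).

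ALDOA, the main aldolase outside liver and brain, splits fructose 1,6-bisphosphate. It read 16.0, 15.3 and 18.6 CPM in SK-N-BE2 with DMSO and 13.2, 11.7 and 13.9 with STM2457, and 5.11, 4.32 and 4.34 and 7.79, 9.78 and 7.91 in NGP. The treated libraries lay below the controls in SK-N-BE2 and above them in NGP. The fall in SK-N-BE2 (log2 change -0.40, SE 0.12, adjusted p = 0.00945, edgeR) had an adjusted p of 0.0533 without STM2457 replicate 2. In NGP ALDOA rose 1.85-fold (log2 change 0.89, SE 0.16, adjusted p = 0.00299, edgeR), and the responses differed by -1.28 (adjusted p = 0.000275, edgeR). ALDOA is uncertain, because 43.3% of its exon length is also annotated to AC093512.2 on the same strand and reads there could be left out as ambiguous. ALDOC, the brain aldolase, rose in NGP (log2 change 0.48, adjusted p = 0.0188, edgeR) and not in SK-N-BE2 (-0.03). The ALDOC call was lost without NGP DMSO replicate 2 (0.0536), DMSO replicate 3 (0.0768), STM2457 replicate 1 (0.0749) or STM2457 replicate 3 (0.0672).

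TPI1, which interconverts the triose phosphates, rose in both lines. It read 397, 483 and 382 CPM with DMSO and 610.4, 596 and 608 with STM2457 in SK-N-BE2 (log2 change 0.49, SE 0.10, adjusted p = 0.00103, edgeR). In NGP the values were 390.0, 217 and 267 and 626, 583 and 597 (log2 change 1.05, SE 0.19, adjusted p = 0.00307, edgeR). All treated libraries exceeded all controls in each line, and DMSO replicate 1 was well above the other NGP controls. Without that replicate the responses of TPI1 differed between the lines (adjusted p = 0.000256 against 0.0853 with it, edgeR).

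With DMSO, the 4 most abundant of the 35 RNAs per length were in the same order in both lines. In SK-N-BE2, GAPDH stood at 2265 ± 179 RPKM (SD, n = 3), ENO1 at 306 ± 11.7, TPI1 at 156 ± 20.2 and PKM at 93.7 ± 4.64. In NGP the levels were 1070.5 ± 210.3, 436 ± 76.0, 108 ± 33.04 and 74.9 ± 11.5 RPKM, and the spreads of TPI1 and PKM reached each other there.

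GAPDH, which oxidises glyceraldehyde 3-phosphate, fell in SK-N-BE2 from 5427 ± 428 to 3829 ± 27.4 CPM (SD, n = 3; log2 change -0.54, SE 0.10, adjusted p = 0.000594, edgeR). In NGP it went from 2565 ± 504 to 3385 ± 58.2 CPM (adjusted p = 0.0478, edgeR), with no overlap between groups. That call was lost, at adjusted p between 0.0911 and 0.15, when any NGP library other than DMSO replicate 1 was left out, and it reached 0.000107 without that replicate. With counts halved the NGP call was also lost (adjusted p = 0.051, edgeR). GAPDH has 65 named pseudogenes in GENCODE 44, and reads that map to several places were not counted. In SK-N-BE2 the share of reads from GAPDH went down while the summed share of the other enzymes went up. All 18 enzymes took 1.01% ± 0.0393 of reads with DMSO and 1.00% ± 0.0128 with STM2457, whereas the 17 without GAPDH took 0.479% ± 0.0169 and 0.624% ± 0.0121. In NGP the same sums were 0.757% ± 0.0884 and 1.07% ± 0.0156 with GAPDH, and 0.495% ± 0.0481 and 0.732% ± 0.0101 without it. The exact two-sided permutation p was 0.9 for all 18 enzymes in SK-N-BE2 and 0.1, the smallest possible, for the other 3 changes.

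**Figure D2:**
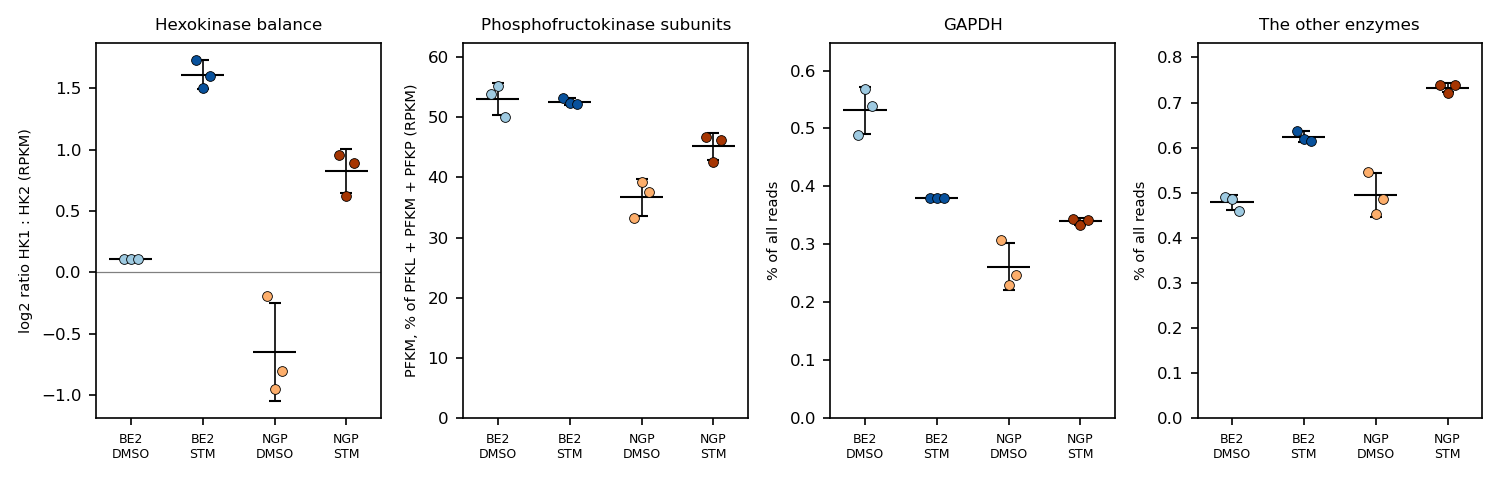
Each point is 1 library, with the mean and SD of each group (n = 3), for the log2 ratio of HK1 to HK2 RPKM, the PFKM share of phosphofructokinase RPKM (%), and the share of all reads (%) in GAPDH and in the other 17 enzymes. The hexokinase ratio and the share of the other enzymes are higher in every treated library of both lines, while the GAPDH share moves down in SK-N-BE2 and up in NGP.

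In the lower part of glycolysis PGK1, PGAM1, ENO1 and PKM, which lead from 1,3-bisphosphoglycerate to pyruvate, had positive log2 changes in both lines. PGAM1 and PKM rose in both under every setting tried. PGAM1 has 13 named pseudogenes and PKM has 5, so the limit given for GAPDH holds for them too. PKM, whose splice forms were not separated, read 829, 823 and 758 CPM with DMSO and 1336, 1226 and 1273 with STM2457 in SK-N-BE2 (log2 change 0.63, SE 0.09, adjusted p = 5.56e-05, edgeR). In NGP it read 749, 555 and 622 and 1163, 1093 and 1135 (log2 change 0.82, SE 0.12, adjusted p = 0.00112, edgeR). The treated libraries were above the controls in both lines by 1.55-fold and 1.76-fold. ENO1 passed the test narrowly in each line (adjusted p = 0.0398 and 0.0265, edgeR), and lost it in 4 of 6 SK-N-BE2 fits and 5 of 6 NGP fits that left out 1 library. ENO2, the neuronal enolase, rose in SK-N-BE2 (log2 change 0.48, adjusted p = 0.000422) and not in NGP (-0.11, 0.461). Its share of ENO1 and ENO2 per length was 12.4% ± 0.861 with DMSO and 14.4% ± 0.333 with STM2457 in SK-N-BE2. For NGP the shares were 4.66% ± 0.240 and 3.21% ± 0.209, also without overlap (exact two-sided permutation p = 0.1 in each, the smallest possible).

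LDHA, which reduces pyruvate to lactate, showed the widest difference between the lines among the 35 genes that passed that test. It read 24.6, 28.2 and 23.0 CPM with DMSO and 17.6, 15.9 and 17.9 with STM2457 in SK-N-BE2. NGP libraries read 273, 226 and 238 with DMSO and 599.6, 573 and 619 with STM2457. NGP controls were thus 9.72-fold above SK-N-BE2 controls, and treatment moved the lines further apart, with no overlap between groups in either. LDHA fell 1.51-fold in SK-N-BE2 (log2 change -0.60, SE 0.11, adjusted p = 0.000368, edgeR) and rose 2.44-fold in NGP (log2 change 1.28, SE 0.10, adjusted p = 5.05e-05, edgeR). The difference of the responses was -1.87 (SE 0.14, adjusted p = 7.19e-07, edgeR). The LDHA window printed above has 5 HIF-core matches, 4 of them within 2 CACGTG copies. Such a number is not particular to LDHA. The windows of ALDOC and BNIP3, which are not shown, hold 5 and 6 matches, and BNIP3 was called in neither line. No link between matches and response was tested. LDHA has 6 named pseudogenes, and since LDHB is not analysed here, the balance of the lactate dehydrogenase subunits is unknown.

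Of the transporters, a glucose carrier fell and a lactate carrier rose in NGP. SLC2A1 (GLUT1), the main basal glucose transporter and a HIF target, read 56.6, 59.4 and 59.5 CPM with DMSO and 65.1, 57.6 and 60.9 with STM2457 in SK-N-BE2, where the groups overlapped (adjusted p = 0.784, edgeR). In NGP it read 71.1, 67.5 and 79.5 and 40.7, 46.4 and 40.4, with every treated library below every control. It fell 1.71-fold there (log2 change -0.77, SE 0.11, adjusted p = 0.000929, edgeR), while 15 enzymes rose, and the responses differed by 0.81 (adjusted p = 0.000407, edgeR). SLC2A3 (GLUT3), the high-affinity transporter of neurons, read 14.7, 18.9 and 15.5 CPM and 10.8, 12.2 and 11.9 in SK-N-BE2, without overlap (log2 change -0.53, SE 0.12, adjusted p = 0.00221, edgeR). In NGP it lay between 0.426 and 1.39 CPM in the 6 libraries and did not pass the test (adjusted p = 0.254, edgeR).

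SLC16A1 (MCT1) and SLC16A3 (MCT4) carry lactate across the plasma membrane, and SLC16A3 is the form linked to export and to HIF. SLC16A1 read 347, 391 and 323 CPM with DMSO and 309, 308 and 303 with STM2457 in SK-N-BE2, and 228, 253 and 242 and 345, 327 and 346 in NGP. It went the way of LDHA, with treated libraries below the controls in SK-N-BE2 and above them in NGP. The rise in NGP (log2 change 0.49, SE 0.09, adjusted p = 0.00273, edgeR) held in every fit, while the fall in SK-N-BE2 (log2 change -0.24, SE 0.09, adjusted p = 0.0354, edgeR) reached 0.0804 without DMSO replicate 2, 0.0937 without STM2457 replicate 1, 0.093 without STM2457 replicate 2 and 0.122 without STM2457 replicate 3. The responses differed by -0.72 (adjusted p = 0.000433, edgeR). SLC16A3 was low, at 2.76, 1.99 and 2.91 CPM with DMSO and 1.87, 1.82 and 1.05 with STM2457 in SK-N-BE2 (log2 change -0.73, SE 0.26, adjusted p = 0.0305, edgeR). That call did not hold without DMSO replicate 1 (0.0778), DMSO replicate 3 (0.108) or STM2457 replicate 3 (0.132). In NGP the SLC16A3 values were 1.59, 1.54 and 1.66 and 0.656, 1.11 and 1.28, lower in all treated libraries but not past the test (adjusted p = 0.118, edgeR).

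The pyruvate dehydrogenase kinases switch off the enzyme that passes pyruvate to the mitochondrial citrate cycle. PDK1, a HIF target, read 45.9, 61.8 and 57.2 CPM in NGP with DMSO and 25.0, 25.0 and 25.2 with STM2457. It fell 2.19-fold there (log2 change -1.13, SE 0.13, adjusted p = 0.000279, edgeR), and the treated libraries were nearly identical. In SK-N-BE2 PDK1 read 36.2, 28.9 and 30.3 and 32.7, 34.1 and 31.0, with overlapping groups (adjusted p = 0.989, edgeR). The responses differed by 1.14 (SE 0.17, adjusted p = 0.000178, edgeR). PDK3 rose 1.60-fold in SK-N-BE2, from 34.6, 27.0 and 26.0 to 45.8, 55.3 and 43.0 CPM (log2 change 0.68, SE 0.12, adjusted p = 0.000406, edgeR). In NGP PDK3 read 14.2, 23.9 and 17.1 and 27.4, 24.4 and 25.3, higher in every treated library, with adjusted p = 0.0638 by edgeR, 0.0311 by DESeq2 and 0.00531 by edgeR without DMSO replicate 2. The PDK1 and PDK3 responses therefore took opposite signs in NGP, where only the fall of PDK1 passed the edgeR test.

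**Figure D3:**
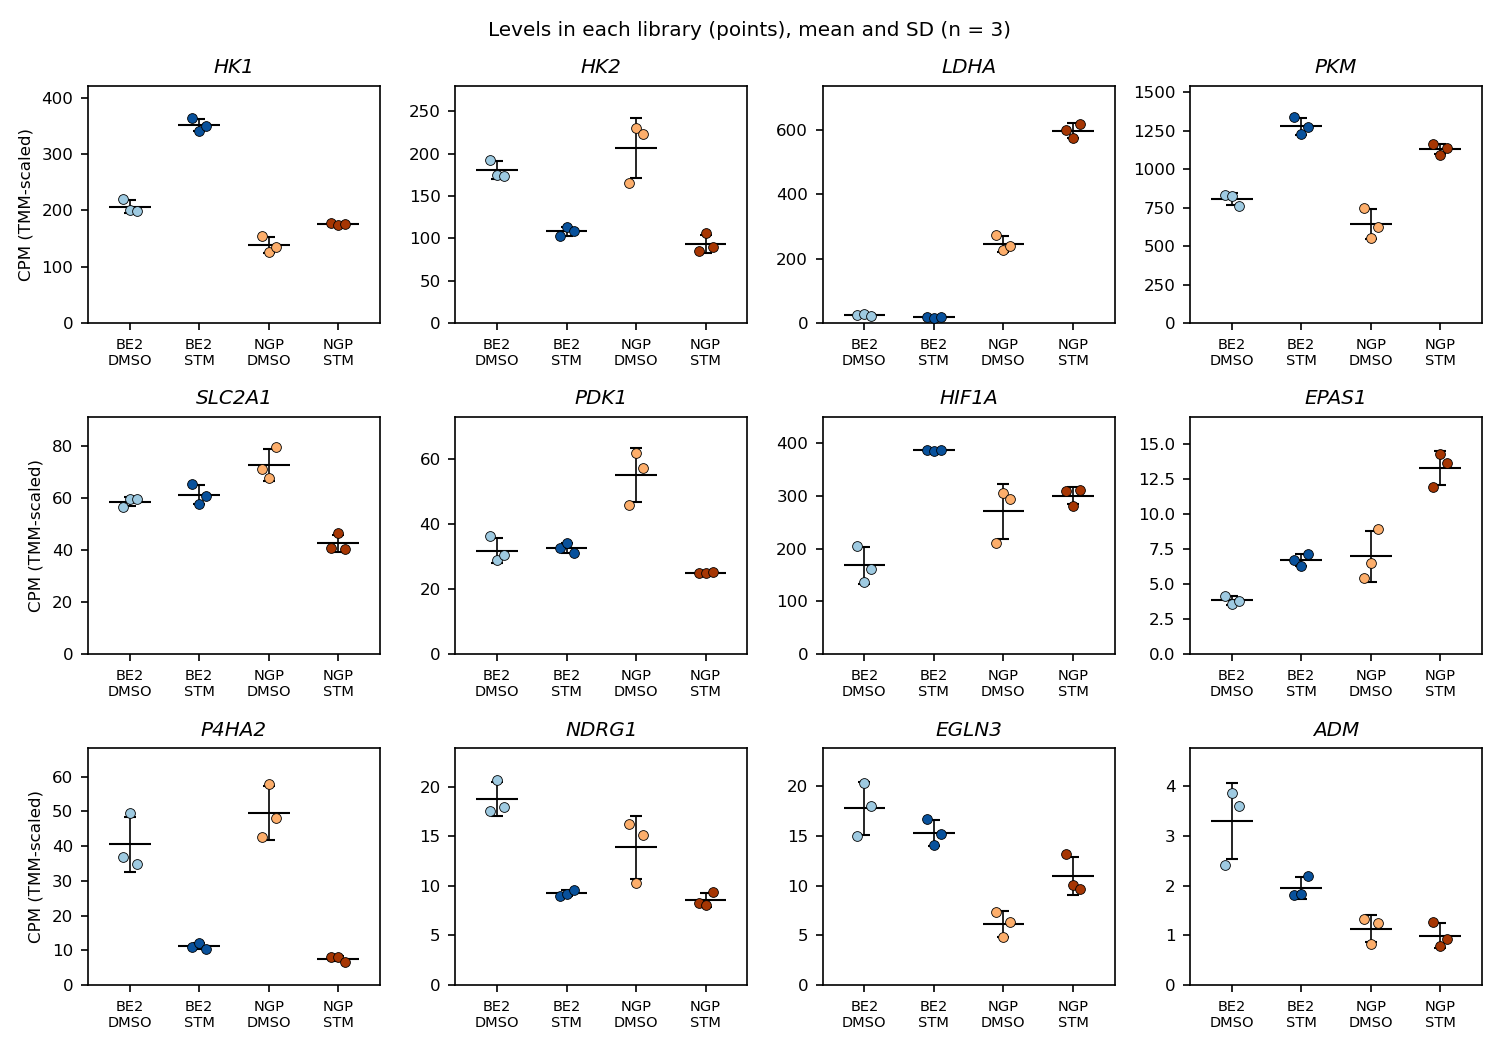
CPM of 12 genes in each library (points), with the mean and SD of each group (n = 3), each panel starting at 0 on its own scale. HK2, NDRG1 and P4HA2 are lower with STM2457 in both lines, LDHA moves apart, and HIF1A is higher in SK-N-BE2 but overlaps in NGP.

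HIF1A and EPAS1 encode the alpha subunits of HIF-1 and HIF-2. HIF1A read 206, 138 and 161 CPM in SK-N-BE2 with DMSO and 388, 386 and 388 with STM2457, a rise of 2.25-fold (log2 change 1.17, SE 0.12, adjusted p = 3.64e-06, edgeR). NGP libraries read 212, 307 and 294 and 309, 282 and 312 (adjusted p = 0.417, edgeR). The SK-N-BE2 groups were separate and the NGP groups overlapped. The responses differed by 1.02 (SE 0.21, adjusted p = 0.00194, edgeR). EPAS1 was lower than HIF1A per length with DMSO (0.525 against 32.7 RPKM in SK-N-BE2 and 0.956 against 52.6 in NGP). It read 4.15, 3.55 and 3.77 CPM with DMSO and 6.72, 6.29 and 7.13 with STM2457 in SK-N-BE2 (log2 change 0.77, SE 0.14, adjusted p = 0.000511, edgeR). In NGP it read 5.43, 6.53 and 8.94 and 11.9, 14.3 and 13.6 (log2 change 0.93, SE 0.19, adjusted p = 0.00553, edgeR). EPAS1 was higher in every treated library of both lines, and its responses did not pass the test of a difference (adjusted p = 0.694, edgeR).

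P4HA2, a catalytic subunit of the collagen prolyl 4-hydroxylase, fell most of the 35 genes in both lines. It read 36.9, 49.6 and 35.0 CPM with DMSO and 10.9, 12.2 and 10.5 with STM2457 in SK-N-BE2, 3.71-fold lower (log2 change -1.89, SE 0.13, adjusted p = 1.31e-07, edgeR). Its NGP values were 42.5, 58.0 and 48.2 and 8.19, 7.97 and 6.69, 6.50-fold lower (log2 change -2.70, SE 0.16, adjusted p = 1.06e-05, edgeR). Treated and control libraries did not overlap in either line, and the fall was larger in NGP, at the lower dose, by 0.82 on the log2 scale (adjusted p = 0.00935, edgeR). Its partner gene P4HA1, which encodes the other main catalytic form of that enzyme, had log2 changes of 0.64 in SK-N-BE2 (adjusted p = 0.000246) and 0.15 in NGP (0.338, edgeR). The hydroxylase subunits thus had opposite signs in each line, with P4HA1 past the test in SK-N-BE2.

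NDRG1, a growth-restraining stress gene known to be repressed by MYCN, read 17.6, 20.7 and 17.9 CPM with DMSO and 9.0, 9.15 and 9.63 with STM2457 in SK-N-BE2 (log2 change -1.05, SE 0.11, adjusted p = 3.88e-06, edgeR). In NGP it read 16.3, 10.3 and 15.1 and 8.23, 8.03 and 9.34 (log2 change -0.70, SE 0.19, adjusted p = 0.0167, edgeR). Treated libraries were below the controls in both lines. The NGP call was lost without DMSO replicate 3 (0.0625), STM2457 replicate 1 (0.0652) or STM2457 replicate 2 (0.0729). ADM, which encodes the vasodilator adrenomedullin, read 2.42, 3.88 and 3.60 CPM and 1.81, 1.82 and 2.21 in SK-N-BE2, without overlap (log2 change -0.80, SE 0.22, adjusted p = 0.00857, edgeR). In NGP it stayed between 0.778 and 1.33 CPM in all 6 libraries, with overlapping groups (adjusted p = 0.66, edgeR).

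EGLN3, an oxygen-dependent prolyl hydroxylase that acts back on HIF alpha subunits, was the HIF target outside glycolysis that rose in NGP. It read 7.38, 4.79 and 6.33 CPM with DMSO and 13.2, 10.1 and 9.61 with STM2457 (log2 change 0.83, SE 0.20, adjusted p = 0.0108, edgeR), and the adjusted p was 0.052 without STM2457 replicate 1. In SK-N-BE2 it read 15.0, 20.3 and 18.0 and 16.7, 14.1 and 15.2, with overlap (adjusted p = 0.103, and 0.0165 in the direction of a fall without DMSO replicate 1, edgeR). The responses differed by -1.07 (SE 0.25, adjusted p = 0.00466, edgeR). The mitophagy receptor BNIP3, the histone demethylase KDM3A and the ankyrin-repeat gene ANKRD37 had log2 changes between -0.15 and 0.18 in both lines. None of them passed the test in either line. BNIP3 has 44 named pseudogenes, and reads that map to several places were not counted, so its level is uncertain. BNIP3 reached an adjusted p of 0.041 in SK-N-BE2 without DMSO replicate 1, and KDM3A reached 0.0384 in NGP without DMSO replicate 1. CA9, the cell-surface carbonic anhydrase often used as a marker of hypoxia, was at most 0.402 CPM in every library and at 0 in 3 NGP libraries, so it was not tested in NGP. ANKRD37 and CA9 share 40.3% and 36.1% of their exon length with a gene on the other strand, and counting did not use strand, so both are uncertain.

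Of 29 other genes of glucose uptake and use tested in SK-N-BE2, 8 rose and 6 fell, and of 26 in NGP, 5 rose and 1 fell. The called shares, 48.3% and 23.1%, were below those over all genes (54.7% and 41.7%). In the pentose phosphate pathway, which branches from glucose 6-phosphate and makes NADPH, 2 of 9 genes rose and 4 fell in SK-N-BE2, and 4 of 8 rose in NGP (66.7% and 50% called, against the 54.7% and 41.7% over all genes). None of those 8 was called lower in NGP by edgeR, none had an unadjusted p under 0.05 in that direction, and DESeq2 called none lower. TKT, the transketolase, rose in NGP (log2 change 0.80, SE 0.13, adjusted p = 0.00158, edgeR) and fell in SK-N-BE2 (-0.30, adjusted p = 0.00626), and the difference passed its test (adjusted p = 0.000118, edgeR). PGD, the third enzyme of that branch, rose in SK-N-BE2 (log2 change 0.71, adjusted p = 5.54e-06, edgeR) and in NGP (0.60, adjusted p = 0.00267), and its responses did not pass the test of a difference (adjusted p = 0.475, edgeR). PGLS, the lactonase that precedes PGD, fell in SK-N-BE2 (-0.37, adjusted p = 0.0246), with overlapping groups and a call that was lost in 3 of 6 fits that left out 1 library. Its NGP value did not pass (-0.45, adjusted p = 0.15, edgeR).

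Among other glucose genes, the hexokinase HK3 was rare but rose in SK-N-BE2, from 0.308 ± 0.192 to 2.41 ± 0.631 CPM (SD, n = 3; log2 change 2.90, SE 0.39, adjusted p = 3.46e-05, edgeR). The glucose transporter SLC2A6 rose in SK-N-BE2 (1.33, adjusted p = 1.54e-06) and by less in NGP (0.54, adjusted p = 0.0319, adjusted p of the difference 0.0145, edgeR). SLC2A4 (GLUT4, the insulin-responsive form) rose in NGP (2.02, adjusted p = 0.000232) and in SK-N-BE2 (0.87, adjusted p = 0.0349, edgeR). The smaller rise of each transporter, SLC2A6 in NGP and SLC2A4 in SK-N-BE2, was called in only 1 of 6 fits that left out 1 library (adjusted p up to 0.114 and 0.119). The phosphoglucomutase PGM2 rose in NGP (0.74, adjusted p = 0.00199) and in SK-N-BE2 (0.37, adjusted p = 0.00339), with an adjusted p of the difference of 0.0785 by edgeR and 0.0445 by DESeq2. Of the 5 gluconeogenesis genes tested per line, 1 rose and 2 fell in SK-N-BE2 and 1 rose and 1 fell in NGP, near the shares called over all genes (54.7% and 41.7%). PCK2, the mitochondrial phosphoenolpyruvate carboxykinase, fell in both lines, from 221 ± 9.23 to 61.0 ± 1.75 CPM in SK-N-BE2 (log2 change -1.90, SE 0.08, adjusted p = 1.24e-09, edgeR). In NGP PCK2 fell from 173 ± 23.2 to 58.8 ± 5.91 CPM (log2 change -1.55, SE 0.13, adjusted p = 6.17e-05, edgeR). FBP1, which opposes phosphofructokinase, rose in NGP from a low level of 0.277 ± 0.190 to 2.63 ± 0.745 CPM (log2 change 3.24, SE 0.48, adjusted p = 0.00111, edgeR). The pyruvate carboxylase PC rose in SK-N-BE2 (0.32, adjusted p = 0.00505) and had a like value in NGP that did not pass (0.31, adjusted p = 0.0611, edgeR).

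Of 12 genes that make or control HIF, 3 rose and 5 fell in SK-N-BE2, and 1 rose and 2 fell in NGP. The called shares were 66.7% and 25.0%, against 54.7% and 41.7% over all genes. VHL, the ubiquitin ligase component that recognises hydroxylated HIF alpha subunits, fell in NGP from 183 ± 12.4 to 108 ± 6.38 CPM (log2 change -0.76, SE 0.10, adjusted p = 0.000528, edgeR) and also in SK-N-BE2 (-0.30, adjusted p = 0.0066). HIF3A, a family member that can act as an inhibitor, fell in NGP (log2 change -1.42, SE 0.15, adjusted p = 0.000197, edgeR). CITED2, which competes with HIF for its coactivator, fell in SK-N-BE2 (log2 change -0.90, SE 0.12, adjusted p = 3.12e-05, edgeR). ELOB, a subunit of the VHL ligase, fell there as well (-0.51, adjusted p = 0.00171), though 16.8% of its exon length overlaps SRRM2 on the other strand.

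Among 38 further HIF targets tested in SK-N-BE2, 10 rose and 11 fell, with a median log2 change of -0.11, and among 34 in NGP 12 rose and 7 fell, with a median of 0.16. These counts lie close to the shares over all genes in SK-N-BE2, and the share that rose in NGP is above the 19.4% over all genes. DDIT4 (REDD1), which restrains mTORC1 and is induced by hypoxia and by nutrient stress, fell from 1136 ± 110.1 to 55.1 ± 2.01 CPM in SK-N-BE2 (SD, n = 3; log2 change -4.40, SE 0.11, adjusted p = 6.66e-12, edgeR). In NGP it fell from 525 ± 49.6 to 75.0 ± 7.60 CPM (log2 change -2.80, SE 0.12, adjusted p = 3.06e-06, edgeR). STC2, the secreted stanniocalcin 2, fell from 443 ± 34.2 to 23.8 ± 0.464 CPM in SK-N-BE2 (log2 change -4.26, SE 0.10, adjusted p = 4.32e-12, edgeR). Its NGP values were 276 ± 5.16 CPM with DMSO and 56.4 ± 6.02 with STM2457 (log2 change -2.29, SE 0.11, adjusted p = 4.07e-06, edgeR). The falls of DDIT4 and STC2 were larger in SK-N-BE2, by -1.59 and -1.96 on the log2 scale (adjusted p = 4.34e-06 and 2.45e-07, edgeR).

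**Figure D4:**
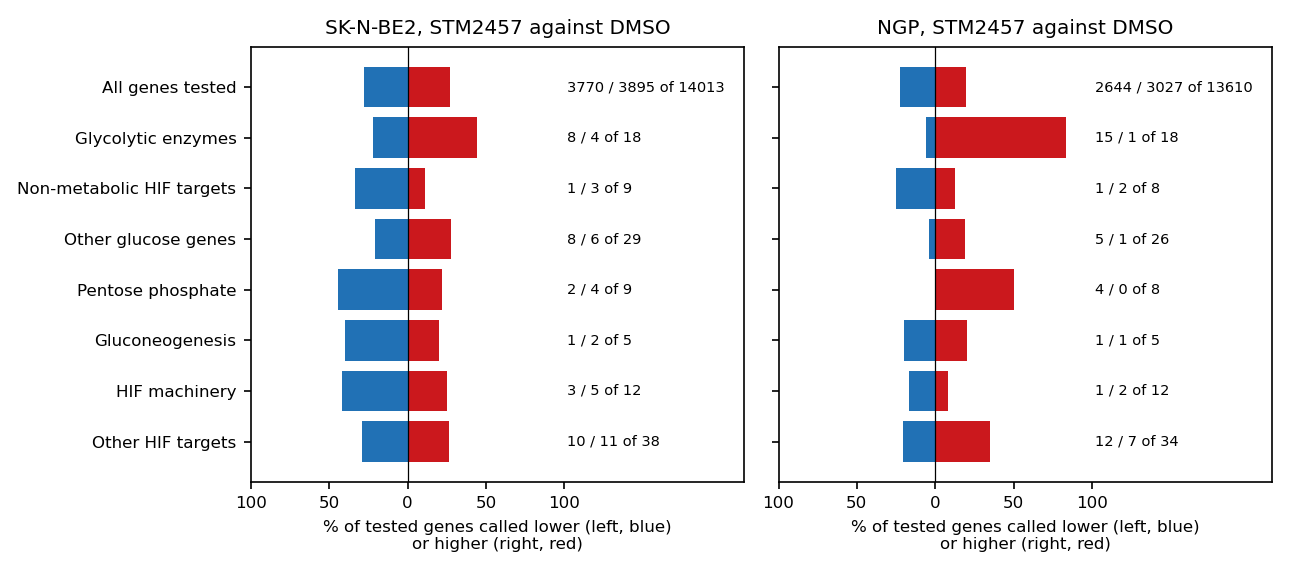
Percentage of tested genes in each list called lower (blue, left) and higher (red, right) with STM2457 in SK-N-BE2 (left panel) and NGP (right panel), with the numbers higher / lower of tested beside each bar. The enzyme bar reaches farthest right in NGP (15 of 18), while the bars of the HIF targets stay closer to those of all genes.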

How the data were processed

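The authors deposited whole-number counts of reads per gene, 1 file per library, which featureCounts 2.0.5 made in paired mode from exons summed under each gene's name. The annotation was the protein-coding part of GENCODE 33 for GRCh38, per the file headers. The submitters' processing notes also list FastQC 0.11.5, Trimmomatic 0.36, HISAT2 2.1.0 and Subread 1.5.3, with no role or order. No strand option was set and multi-mapping reads were not counted, per the file headers. A fragment can add 2 to a count: of counts from 1 to 20, between 72.1% and 75.4% were even.

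From the deposited counts, each line was fitted on its own 6 libraries with edgeR 4.0.16 in R 4.3.3 (filterByExpr, minimum count 10, TMM scaling, quasi-likelihood test, Benjamini-Hochberg adjustment over all genes tested, threshold 0.05). For the difference (response of SK-N-BE2 less that of NGP), 4 group means over 12 libraries were contrasted. Standard errors were derived from the log2 change and its F statistic. CPM values are on the TMM scale, and RPKM values divide them by the exon length in the files. Shares and ratios were compared with exact permutation tests. The members, lists, naming rule and tests were chosen with earlier results of these data known. HIF1A, EPAS1 and SLC2A1 were given in full always. In each line and class up to 3 called genes with the largest change and no overlap between groups were added, and up to 4 for the difference between the lines. Up to 2 genes per line and further list, with at least 1 CPM, were named, and G6PC1 was found there as G6PC. Some genes of these lists are not reported by name here. Exon overlaps come from the deposited files, pseudogene names from GENCODE 44, and promoter windows from RefSeq. On simulated counts with 200 genes changed by a log2 of 1, the fits recovered 99% (SK-N-BE2, 14010 genes run), 99.5% (NGP, 13595 genes) and 81.5% (difference, 14652 genes). Of the calls, 2.46%, 5.24% and 4.68% were false. The simulated libraries varied with a coefficient of variation of 0.12 for every gene, and no library stood apart by design. Many genes above changed by less than a log2 of 1, and recovery of such changes was not simulated. Alternatives were DESeq2 1.42.0, its size factors, other filters on low counts, halved counts, a block for replicate number and leaving out each library.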

Additional observations from a re-analysis of the deposited data

Results flagged for a closer look

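The response to STM2457 differed between the lines for 17 of the 35 genes, by a contrast of the 2 responses (edgeR, adjusted p under 0.05). Values are log2 responses in SK-N-BE2 minus those in NGP, with the responses of each line in the report. Among the enzymes, the response was lower in SK-N-BE2 for LDHA (-1.87), ALDOA (-1.28), PFKFB4 (-1.15), GAPDH (-0.93), GPI (-0.82), PFKM (-0.68), ALDOC (-0.50) and PFKFB3 (-0.41). It was higher there for ENO2 (0.61) and HK1 (0.40). Outside the enzymes, the lactate transporter SLC16A1 (-0.72) and the hydroxylase EGLN3 (-1.07) responded lower in SK-N-BE2. PDK1 (1.14), HIF1A (1.02), P4HA2 (0.82), SLC2A1 (0.81) and P4HA1 (0.51) responded higher, which for P4HA2 means a smaller fall. LDHA, ALDOA, GAPDH and SLC16A1 were called in opposite directions in the lines. The calls of ALDOC, HK1 and P4HA1 were lost in some fits that left out 1 library.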

How the results depend on the processing

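Of the 22 genes called in SK-N-BE2, 18 were called in every fit, with ALDOA, ENO1, SLC16A1 and SLC16A3 lost in some. In NGP it was 17 of 23 (ALDOC, EGLN3, ENO1, GAPDH, HK1 and NDRG1 lost in some), and for the difference 14 of 17 (ALDOC, HK1 and P4HA1). Leaving out 1 library gave 19 to 23 called genes in SK-N-BE2, 17 to 24 in NGP and 14 to 22 for the difference, the last 2 maxima without NGP DMSO replicate 1. The change in the log2 ratio of HK1 to HK2 lay between 1.44 and 1.56 (SK-N-BE2) and between 1.33 and 1.69 (NGP). Deviations of libraries with the same replicate number correlated at -0.141, 0.134 and 0.00159 (SK-N-BE2) and at 0.00461, -0.139 and 0.0653 (NGP). Libraries with different numbers correlated between -0.322 and 0.31 (SK-N-BE2) and between -0.169 and 0.168 (NGP). No shared deviation by number was seen, but so few libraries cannot show whether they were paired. With the replicate block, 21 genes were called in SK-N-BE2, 22 in NGP and 16 for the difference: it ended the calls of ENO1 in SK-N-BE2 (adjusted p = 0.0776, edgeR), HK1 in NGP (0.051) and P4HA1 for the difference (0.0578), and no other call of the 35 genes. The changes whose sign turned were all uncalled. PDK1 in SK-N-BE2 (-0.0018) became 0.00488 with DESeq2 size factors, 0.00163 with no filter, 0.00482 with DESeq2 and 0.00341 with the replicate block, and -0.0639 to 0.0996 over fits without 1 library. The other ranges over such fits were, in SK-N-BE2, PFKFB3 -0.0316 to 0.0432, ALDOC -0.0675 to 0.0235, SLC2A1 -0.0157 to 0.0697, ANKRD37 -0.0489 to 0.53 and KDM3A -0.0582 to 0.0669. In NGP they were PFKL -0.202 to 0.0698 and ANKRD37 -0.206 to 0.0418. For the difference they were PFKL -0.247 to 0.0695, SLC2A3 -0.264 to 0.325, SLC16A3 -0.306 to 0.154, PDK3 -0.0211 to 0.346 and CA9 -0.18 to 3.29. The cause was not tested. Low counts limit CA9, SLC16A3, ADM and ANKRD37, and the exact tests on 3 libraries a group cannot go below 0.1.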
